A study of Homo sapiens with 6 samples.

Results

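The potassium channel genes are the protein-coding genes of the human genome whose symbols start with KCN, and their chromatin accessibility was compared between A375 melanoma cells that carried an empty vector and A375 cells that overexpressed HMGB2 (HMGB2OE). GENCODE release 44 lists 96 such genes among 20046 protein-coding genes. A peak of the assay for transposase-accessible chromatin (ATAC-seq) belonged to a gene when its centre lay in the gene body, or when it lay outside all protein-coding genes and the start site of that gene was the nearest. By this rule 1285 of 152800 peaks were assigned, of which 1274 had enough counts to be tested and 11 had not. KCNJ13, KCNMB1, KCNK16, KCNK4, KCNAB3 and KCNE5 had no peak. HMGB2 is a chromatin architectural protein of the high mobility group. A375 is a cultured human melanoma line, and the series asks how raised HMGB2 changes which parts of its genome are open. There were 3 empty vector and 3 HMGB2OE libraries, named EV1 to EV3 and OE1 to OE3 here after their labels. The overexpressing line was made by lentiviral transduction and drug selection, the labels name no further line of either condition, and the study describes the 3 libraries of a condition as technical replicates of an experiment that was not repeated. All p-values therefore measure only the spread between these libraries.

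Potassium channels let potassium ions leave or enter a cell along their gradient and so set the resting membrane potential and end action potentials. Voltage-gated channels open on depolarization, inward rectifiers pass current best near rest, tandem-pore channels carry the background leak, and the calcium- or sodium-activated channels read intracellular ions. Auxiliary subunits do not form a pore and instead change the gating or surface level of the others. In melanoma cells, as in other dividing cells, channels of these groups have been studied for effects on proliferation, volume and migration.

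The ATAC-seq signal is a count of fragments over a stretch of genome, and the sequence of such a stretch shows what the assay read. Shown first are 4 potassium channel peaks, those of the 18 peaks named for size or significance of change that hold a word of the AP-1 transcription factors, TGAGTCA or its reverse complement TGACTCA. AP-1 factors are dimers of FOS and JUN proteins that bind many distal elements in melanoma cells. Each line gives 200 bases around the word on the forward strand of hg38, with the word in capitals, at chr2:26712207-26712406 for KCNK3, chr4:21708584-21708783 for KCNIP4, chr10:77564912-77565111 for KCNMA1 and chr3:177831487-177831686 for KCNMB2.
KCNK3: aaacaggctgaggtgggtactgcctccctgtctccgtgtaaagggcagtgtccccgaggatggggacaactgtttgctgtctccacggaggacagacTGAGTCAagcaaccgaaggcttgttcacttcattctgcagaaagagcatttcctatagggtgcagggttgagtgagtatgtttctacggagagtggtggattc
KCNIP4: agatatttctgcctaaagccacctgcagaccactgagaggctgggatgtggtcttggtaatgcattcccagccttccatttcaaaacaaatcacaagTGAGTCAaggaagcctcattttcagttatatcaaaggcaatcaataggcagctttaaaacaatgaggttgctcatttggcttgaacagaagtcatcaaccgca
KCNMA1: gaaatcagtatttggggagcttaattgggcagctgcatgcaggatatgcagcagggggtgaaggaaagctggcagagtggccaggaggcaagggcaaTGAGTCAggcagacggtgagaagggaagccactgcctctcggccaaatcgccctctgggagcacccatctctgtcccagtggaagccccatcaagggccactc
KCNMB2: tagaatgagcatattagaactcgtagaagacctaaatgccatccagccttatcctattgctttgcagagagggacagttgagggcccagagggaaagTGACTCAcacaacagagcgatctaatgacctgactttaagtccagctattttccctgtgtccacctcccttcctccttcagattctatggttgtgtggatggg
The KCNK3, KCNMA1 and KCNMB2 peaks were higher in HMGB2OE libraries and the KCNIP4 peak was lower, so the word stood in peaks of both directions. It was found in 378 of 1274 tested potassium channel peaks (29.7%) and in 28.0% of all tested peaks. Among potassium channel peaks called higher, 12 of 40 (30.0%) held it, beside 35.9% of all peaks called higher. Among those called lower it was in 5 of 20 (25.0%), beside 34.2% of all peaks called lower. A match of these letters is a description and not evidence of a bound factor.

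The libraries held between 26910189 and 45645294 counts in peaks, with the lowest total in EV1. On the first principal component of all tested peaks, which took 35.7% of the variance, the 3 empty vector libraries lay on one side and the 3 HMGB2OE libraries on the other. At HMGB2 itself, a peak over coding exons on chromosome 4 from 173332680 to 173333181 had normalized counts of 50.0, 25.0 and 21.1 in empty vector and 102, 101 and 92.3 in HMGB2OE libraries (log2 fold change 1.67, standard error (SE) 0.25, adjusted p = 0.000113), and reads of an HMGB2 construct would align there. The second coding-exon peak, from 173331939 to 173332440, had a smaller rise (log2 fold change 1.16, adjusted p = 0.00822), of 1.004 without OE2 and 0.96 without EV2, both no longer called. The HMGB2 promoter peak had a log2 fold change of -0.011 (adjusted p = 0.959). Of 10 melanocyte lineage markers, MITF, SOX10, PMEL, S100B, EDNRB and PAX3 had a promoter peak between the 86.4th and the 99.97th percentile of all tested peaks, and MLANA, TYR, DCT and TYRP1 had none tested. Of 6 markers of other cell types, CD3E, EPCAM and MYOD1 had one, between the 28.0th and the 74.0th percentile, and PTPRC, ALB and CDH5 had none.

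Peaks of potassium channel genes were called higher in HMGB2OE libraries more often than lower, 40 against 20, though at a fold limit of 2 the counts were 6 and 7. A call needed an adjusted p under 0.05 in edgeR's quasi-likelihood test, adjusted over all tested peaks by the Benjamini-Hochberg method, and a fold change of at least 1.5. The 40 are 3.14% of the tested potassium channel peaks, where 1.87% of all tested peaks were called higher, and the 20 are 1.57%, where 1.44% of all were called lower. The calls were spread over 37 of the 96 genes, with 29 holding a higher peak, 13 a lower peak and 5 both. The median log2 fold change of the 1274 peaks was 0.042, beside -0.0049 over all tested peaks, and 716 (56.2%) lay above 0.

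With no fold limit the counts were 72 higher and 48 lower, against 3.44% and 3.03% of all tested peaks. In 199 peaks (15.6%) every HMGB2OE library lay above every empty vector library, and in 156 (12.2%) every one lay below, where the background shares were 12.6% and 12.5%. The libraries did not overlap in 38 of the 40 peaks called higher and in all 20 called lower, which is nearly bound to happen for peaks called from these same counts. The exceptions were at KCNK17, a leak channel gene, and KCNH6, a gene of the ether-a-go-go family. Single libraries moved these counts. Without OE3 there were 22 peaks called higher and without EV1 there were 26, and the number called lower was 13 without OE1 and 11 without EV2. Calls over all tested peaks fell in the same fits. Higher calls went from 2800 to 1893 without OE3 and 2461 without EV1. Lower calls went from 2166 to 1687 without OE1 and 1552 without EV2. In every fit that left out a library, and in every other scaling, filter and test run on peaks at this fold limit, 12 of the 40 and 5 of the 20 kept their call. Of the 40, 23, 22 and 32 stayed called without EV1, EV2 and EV3, and 24, 30 and 22 without OE1, OE2 and OE3. Of the 20 the numbers were 14, 10, 12, 8, 9 and 12 in the same order. Where a call held without any library this is stated with the peak, and all other called peaks lost it without at least 1 library.

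**Figure D1:**
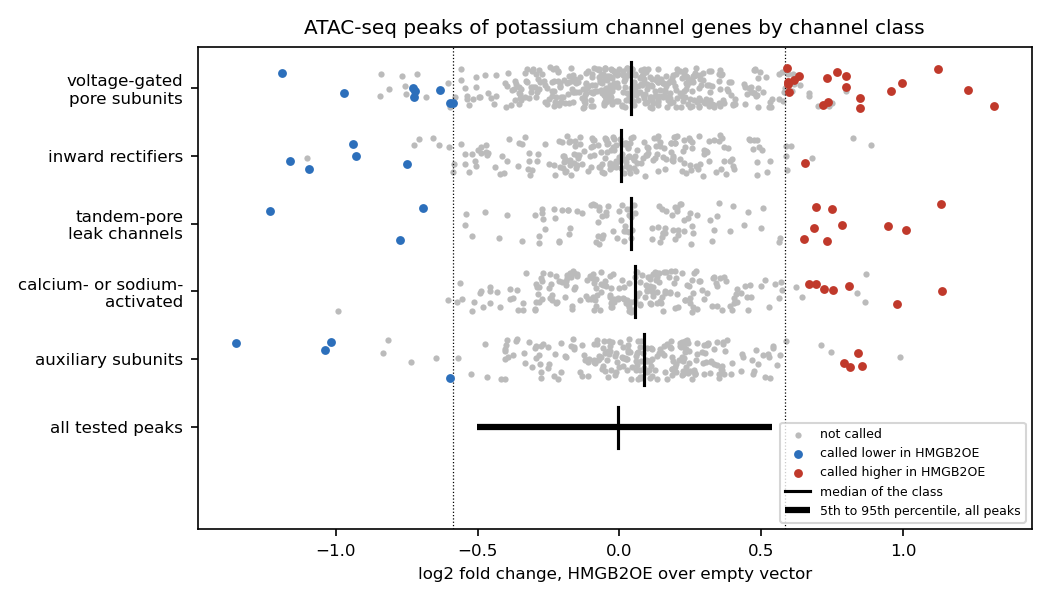
Log2 fold change of HMGB2OE over empty vector for each of the 1274 tested potassium channel peaks (horizontal axis), in rows by channel class, with peaks called higher in red, called lower in blue and others in grey; vertical bars mark class medians, dotted lines the fold limit of 1.5, and the bottom bar the 5th to 95th percentile of all tested peaks. Most grey points lie within the span of all peaks, from -0.50 to 0.54, and the calcium- or sodium-activated class has 7 red points and no blue one.

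Split by channel class, the voltage-gated pore subunits had 19 peaks called higher and 8 lower of 453 tested (4.19% and 1.77%, beside 1.87% and 1.44% of all tested peaks). The tandem-pore leak channels had 9 higher and 3 lower of 113 (7.96% and 2.65%), and the calcium- or sodium-activated channels had 7 higher and 0 lower of 226 (3.10% higher). That last class was set by gene symbol and takes in KCNU1 by family only, with 1 higher and 0 lower of 25. The inward rectifiers had 1 higher and 5 lower of 237 (0.422% and 2.11%), and 2 of the 5 are at KCNJ18, whose values are uncertain. The auxiliary subunits had 4 and 4 of 245 (1.63% each), near the shares of all peaks. Class medians lay between 0.0048 for inward rectifiers and 0.085 for auxiliary subunits. For the class with 0 lower calls under edgeR, 5 peaks were lower with no fold limit and 18 at an unadjusted p under 0.05, and DESeq2 called 0 at the fold limit too. Differences between the classes were not tested.

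Among voltage-gated genes, the largest rise was at KCNQ1, whose product is the pore of the slow delayed rectifier of heart and epithelia. The intronic peak on chromosome 11 from 2778683 to 2779184, centred 1358 bases past an internal start site, had normalized counts of 45.9, 47.3 and 50.3 in empty vector and 106, 118 and 136 in HMGB2OE libraries. The lowest HMGB2OE library was above the highest empty vector library, and the rise from 47.8 ± 2.27 to 120 ± 15.1 (SD, n = 3 each) was a log2 fold change of 1.32 (SE 0.19, adjusted p = 7.61e-05). Leaving out any library kept it between 1.23 and 1.41 and called. The 71 tested peaks within 500 kb that belong to no potassium channel gene had a median of 0.029. KCNQ1 had 1 called peak of 26, so the rise was at a single element of the gene.

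KCNA2, a delayed rectifier subunit of axons, had 3 peaks called higher of 14. The strongest of them, in an intron on chromosome 1 from 110556341 to 110556842, was among the most accessible distal potassium channel elements named here. It had 895, 1131 and 1180 normalized counts in empty vector and 1743, 1524 and 1716 in HMGB2OE libraries, a log2 fold change of 0.63 (SE 0.090, adjusted p = 6.27e-05). All HMGB2OE libraries were higher, and without EV1, the lowest library, the value was 0.53 (adjusted p = 0.000144), under the fold limit. A weaker peak 3439 bases before a start site of KCNA2, from 110634663 to 110635164, had 79.2, 61.1 and 62.0 in empty vector and 139, 111 and 141 in HMGB2OE libraries (log2 fold change 0.96, SE 0.18, adjusted p = 0.00121) and kept its call without any library. The remaining KCNA2 peak, from 110522899 to 110523400, rose less (0.60 on the log2 scale, adjusted p = 0.0118).

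KCNA5, the ultrarapid delayed rectifier subunit of the atrium, had 2 peaks called higher of 9, all 9 being intergenic. The one on chromosome 12 from 5096307 to 5096808 had 247, 271 and 314 normalized counts in empty vector and 482, 446 and 444 in HMGB2OE libraries (log2 fold change 0.72, SE 0.11, adjusted p = 0.000141), with no overlap and a call that held without any library. KCNG4 encodes a modifier subunit that conducts only together with other subunits. Its peak on chromosome 16 from 84255311 to 84255812, 15549 bases before the start site, had 63.9, 62.8 and 58.5 in empty vector and 136, 129 and 102 in HMGB2OE libraries (log2 fold change 0.996, SE 0.18, adjusted p = 0.000887), and it too kept its call without any library.

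KCND2 and KCND3 encode A-type channels that inactivate quickly, and KCND2 had 2 peaks called higher of 30. The larger, 965768 bases before the start site on chromosome 7 from 119307157 to 119307658, was read at few counts, 8.34, 13.8 and 23.4 in empty vector and 28.1, 40.04 and 40.5 in HMGB2OE libraries. Its log2 fold change of 1.23 (SE 0.38, adjusted p = 0.0497) lost its call in 5 of the 6 fits that left out a library, all but that without EV3, with log2 fold changes down to 0.99 and adjusted p up to 0.162. The other KCND2 peak had a log2 fold change of 0.59. KCND3 had 1 peak of 8 higher (0.73) and 1 lower (-0.59).

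In the ether-a-go-go family, KCNH2, the rapid delayed rectifier of the heart, had 2 peaks called higher of 11, and KCNH1, KCNH3 and KCNH6 had 1 each of 12, 4 and 2. The KCNH3 peak on chromosome 12 from 49557777 to 49558278 lies over a coding exon and also inside MCRS1, so it cannot be given to 1 of the genes. It had 41.7, 30.1 and 44.5 normalized counts in empty vector and 60.4, 78.4 and 114 in HMGB2OE libraries (log2 fold change 1.12, SE 0.25, adjusted p = 0.00594). OE3 was the highest, and without it the value was 0.86 (adjusted p = 0.0700), no longer called. KCNH8 of the same family had a peak called lower, 245588 bases before its start site on chromosome 3 from 18902672 to 18903173, at 318, 302 and 303 in empty vector and 181, 211 and 166 in HMGB2OE libraries (log2 fold change -0.72, SE 0.12, adjusted p = 0.000434). The fall at KCNH8 kept its call without any library.

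The most significant fall of a voltage-gated gene was at KCNS3, another modifier subunit. Its intronic peak on chromosome 2 from 18047181 to 18047682 had 796, 870 and 770 normalized counts in empty vector and 558, 501 and 413 in HMGB2OE libraries. The highest HMGB2OE library was below the lowest empty vector library, and the log2 fold change was -0.72 (SE 0.10, adjusted p = 4.94e-05), between -0.83 and -0.62 without any 1 library and always called. The 31 tested peaks within 500 kb that belong to no potassium channel gene had a median of 0.087. The 24 tested peaks of KCNS3 itself had a median of -0.17, with 6 above 0.

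KCNC2, of the family of fast-spiking neurons, had 1 peak higher (0.59) and 1 lower of 12. The lower one, in an intron on chromosome 12 from 75058298 to 75058799, had 33.4, 30.1 and 46.8 in empty vector and 19.6, 11.7 and 16.9 in HMGB2OE libraries (log2 fold change -1.19, SE 0.37, adjusted p = 0.0477). It lost its call without each of the 6 libraries in turn, with values between -1.37 and -0.98 and adjusted p up to 0.198. KCNQ5, a subunit of the M current, had 1 peak higher and 3 lower of 30, with log2 fold changes of 0.62, -0.97, -0.73 and -0.63. KCNC1 and KCNF1 had 1 peak called higher each, of 9 and 13, and KCNV1 had 1 lower of 35. The KCNC1 peak also lies inside SERGEF.

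Of the 15 tandem-pore genes, 7 had a peak called higher. KCNK1, a weakly conducting leak channel, had 2 of 20, both in introns. The peak on chromosome 1 from 233635918 to 233636419 had 135, 138 and 147 normalized counts in empty vector and 268, 249 and 296 in HMGB2OE libraries (log2 fold change 0.95, SE 0.13, adjusted p = 3.71e-05), the lowest adjusted p of the class. Replicates of a condition lay close together here, and no library lay between the conditions. The second, from 233648306 to 233648807, had 41.7, 36.1 and 39.8 in empty vector and 81.6, 67.6 and 87.8 in HMGB2OE libraries (log2 fold change 1.01, SE 0.23, adjusted p = 0.00588). Both kept their calls without any library. Downstream of the gene, another KCNK1 peak was called lower (log2 fold change -0.78, adjusted p = 0.0456).

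KCNK3, KCNK5 and KCNK9 encode pH-sensitive leak channels. The KCNK3 peak whose sequence around the AP-1 word is printed above, in an intron on chromosome 2 from 26712136 to 26712637, had 45.9, 40.4 and 44.5 normalized counts in empty vector and 103, 78.4 and 106 in HMGB2OE libraries (log2 fold change 1.14, SE 0.21, adjusted p = 0.00118). It stayed between 1.06 and 1.26 and called without any library. The 93 tested peaks within 500 kb that belong to no potassium channel gene had a median of -0.062. The next KCNK3 peak along the intron, from 26712689 to 26713190, was called higher as well (0.70, adjusted p = 0.0160). KCNK5 had an intronic peak on chromosome 6 from 39193192 to 39193693 with 431, 524 and 605 in empty vector and 847, 767 and 907 in HMGB2OE libraries (log2 fold change 0.69, SE 0.10, adjusted p = 0.000116), and 0.58 without EV1, under the fold limit. KCNK7, KCNK9, KCNK13 and KCNK17 had 1 peak each called higher, with log2 fold changes between 0.65 and 0.79.

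KCNK2, a leak channel opened by membrane stretch, was the only tandem-pore gene whose called peaks were all lower, 2 of 18. The intronic peak on chromosome 1 from 215166896 to 215167397 had 95.9, 68.8 and 71.4 in empty vector and 35.7, 36.7 and 25.9 in HMGB2OE libraries (log2 fold change -1.23, SE 0.24, adjusted p = 0.00209). The peak 15068 bases before a start site, from 214990537 to 214991038, had 129, 148 and 166 in empty vector and 96.1, 87.6 and 91.2 in HMGB2OE libraries (log2 fold change -0.69, SE 0.16, adjusted p = 0.00656). Neither overlapped between the conditions, and both kept their calls without any library.

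KCNMA1 encodes the pore of the large-conductance calcium-activated channel. Of its 87 tested peaks, 4 were called higher and 0 lower, with 5 lower at an unadjusted p under 0.05 and 0 lower by DESeq2. It had the most peaks called higher of any of the genes, but also the most tested peaks, so the count does not set it apart. Some genes with fewer tested peaks had a larger share, such as KCNA2 (3 of 14), and others a smaller one, such as KCNQ1 (1 of 26). For the whole set of tested peaks the share was 1.87%. All 4 KCNMA1 peaks called higher are intronic. The one of lowest adjusted p, whose AP-1 word is printed above, lies on chromosome 10 from 77564875 to 77565376 and had 140, 153 and 125 normalized counts in empty vector and 236, 212 and 233 in HMGB2OE libraries (log2 fold change 0.69, SE 0.13, adjusted p = 0.00152). Nearer the 5′ end of the gene, the peak from 77626107 to 77626608 had 51.4, 43.9 and 60.9 in empty vector and 91.0, 102 and 114 in HMGB2OE libraries (log2 fold change 0.98, SE 0.20, adjusted p = 0.00287). Neither overlapped between the conditions, and both kept their calls without any library. The other two had log2 fold changes of 0.75 and 0.67.

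The promoter peak of highest count of KCNMA1 had 285 ± 39.0 in empty vector and 279 ± 11.7 in HMGB2OE libraries (SD, n = 3 each), a difference within the spread of the libraries. This peak lies from 77405659 to 77406160, at a start site inside the gene, whose 5′ end is at 77638369. KCNN2, a small-conductance calcium-activated channel, had 1 peak called higher of 26, 224952 bases past its start site on chromosome 5 from 114658232 to 114658733. It had 26.4, 18.9 and 45.6 in empty vector and 52.7, 58.4 and 87.8 in HMGB2OE libraries (log2 fold change 1.14, SE 0.30, adjusted p = 0.0177), and the call was lost without OE3 (0.90), EV1 (1.07) or EV2 (0.84). KCNT2, a sodium-activated channel, and KCNU1, the sperm channel of the same gene family, had 1 intergenic peak each called higher, of 36 and 25 (log2 fold changes 0.72 and 0.81). KCNU1 was placed in this class by its family and not for activation by calcium or sodium.

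The inward rectifiers with a called peak were KCNJ2, KCNJ6 and KCNJ18. At KCNJ2, which sets the resting potential of heart and muscle cells, 1 of 41 peaks was called, 107214 bases past the start site on chromosome 17 from 70276496 to 70276997. It had 207, 213 and 176 normalized counts in empty vector and 138, 97.6 and 74.3 in HMGB2OE libraries (log2 fold change -0.93, SE 0.17, adjusted p = 0.000843), with no overlap and a value between -1.19 and -0.76 without any 1 library, always called. KCNJ6, a channel opened by G proteins, had 2 of 21 called lower. Its intronic peak on chromosome 21 from 37849641 to 37850142 had 40.3, 43.9 and 62.0 in empty vector and 22.1, 22.5 and 20.3 in HMGB2OE libraries (log2 fold change -1.16, SE 0.31, adjusted p = 0.0197), and lost its call without OE1 (-1.18), OE2 (-1.19), OE3 (-1.12) or EV3 (-0.96). The second KCNJ6 peak had a log2 fold change of -0.94.

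KCNJ18 and KCNJ12 are nearly identical copies on chromosome 17 that alignment may not separate, and KCNJ18 was assigned intergenic peaks as far as the centromere, so their values are uncertain. KCNJ18 had 1 peak higher and 2 lower of 85. The intronic peak from 21698389 to 21698890 had 54.2, 61.1 and 63.2 in empty vector and 106, 73.4 and 104 in HMGB2OE libraries (log2 fold change 0.65, SE 0.20, adjusted p = 0.0457), and the call held only without OE2 among the 6 fits that left out a library, where adjusted p rose to 0.211. The intergenic peak from 22116587 to 22117088 had 59.8, 68.0 and 52.7 in empty vector and 23.0, 25.9 and 37.2 in HMGB2OE libraries (log2 fold change -1.09, SE 0.27, adjusted p = 0.0137), and lost its call without OE1 (-0.96), OE2 (-1.03) or EV2 (-0.99). Without both genes, 39 of 1172 tested potassium channel peaks were called higher and 18 lower.

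Among the auxiliary subunits, the partners of the A-type channels had calls in both directions. KCNIP4, a calcium-binding partner of those channels, had 3 peaks called lower of 53, all intronic. The peak on chromosome 4 from 21708394 to 21708895, with its AP-1 word printed above, had 66.7, 38.7 and 39.8 normalized counts in empty vector and 17.9, 15.01 and 23.6 in HMGB2OE libraries (log2 fold change -1.35, SE 0.34, adjusted p = 0.0131). It was the largest fall among the called potassium channel peaks, and lost its call without EV1 (-1.07), OE1 (-1.32) or OE2 (-1.21). The peak from 21802331 to 21802832 had 70.9, 92.1 and 91.3 in empty vector and 46.8, 53.4 and 23.6 in HMGB2OE libraries (log2 fold change -1.02, SE 0.24, adjusted p = 0.00962), and lost its call without OE3 (-0.77) or EV2 (-0.95).

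KCNIP1, of the same family, had 2 peaks called higher of 33. The intronic one on chromosome 5 from 170408143 to 170408644 had 75.1, 80.02 and 104 in empty vector and 154, 150 and 161 in HMGB2OE libraries (log2 fold change 0.84, SE 0.16, adjusted p = 0.00153), without overlap and called without any library. KCNMB2 and KCNMB4 encode subunits that join the KCNMA1 pore, and had 1 peak each called higher, of 34 and 6. The KCNMB2 peak of the printed sequence, 441380 bases before the start site on chromosome 3 from 177831302 to 177831803, had 95.9, 112 and 107 in empty vector and 187, 203 and 164 in HMGB2OE libraries (log2 fold change 0.81, SE 0.15, adjusted p = 0.000804). Its surroundings were raised as well, with a median of 0.29 over the 36 tested peaks within 500 kb that belong to no potassium channel gene. The KCNMB4 peak on chromosome 12 from 70449275 to 70449776 had 90.3, 62.8 and 74.9 in empty vector and 132, 118 and 160 in HMGB2OE libraries (log2 fold change 0.86, SE 0.18, adjusted p = 0.00329). Both peaks kept their calls without any library. KCNAB2, a subunit of the KCNA channels, had 1 of 30 called lower, 620444 bases before its start site (log2 fold change -1.04, adjusted p = 0.0154).

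**Figure D2:**
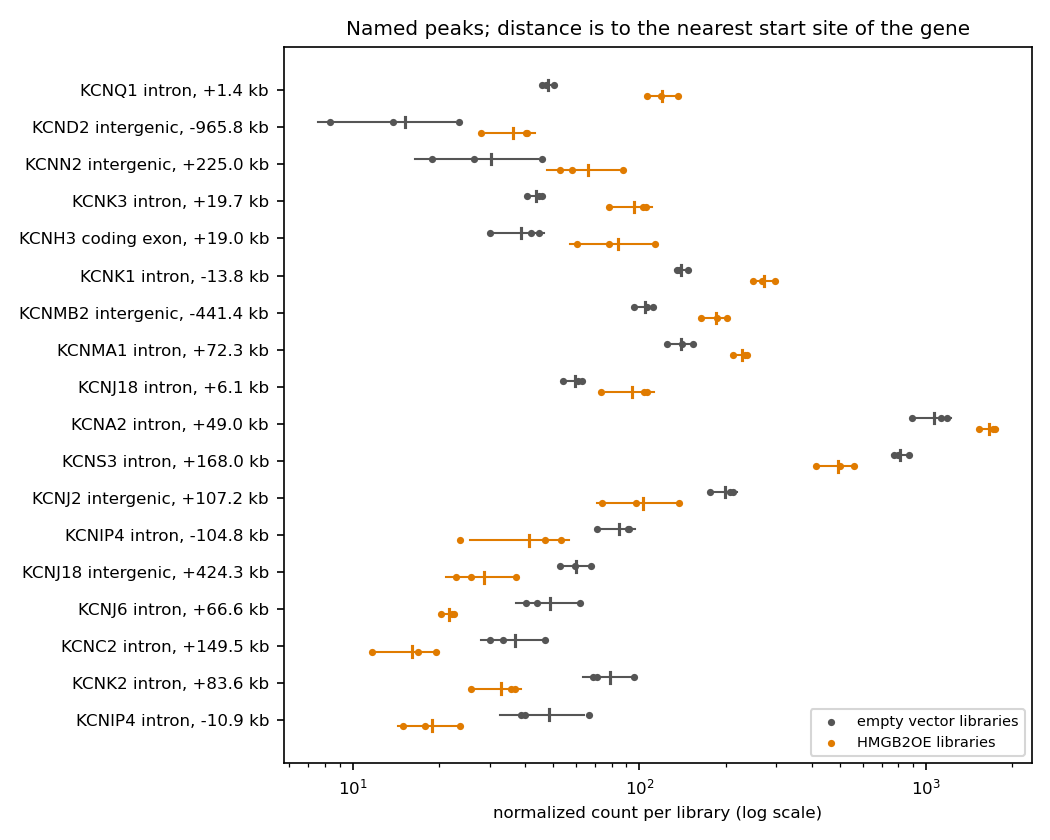
Normalized count (horizontal axis, log scale) of the 18 peaks given by the rule for named peaks in each empty vector (grey) and HMGB2OE (orange) library; points are libraries, ticks the means and bars 1 SD, and labels give gene, annotation and distance to the nearest start site of the gene. Points of the conditions do not overlap in any row, which is no separate support since the peaks were picked by calls on these counts. The KCND2, KCNN2 and KCNH3 rows have wide bars, and the KCNA2 and KCNS3 peaks are the ones read at the highest counts.

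**Figure D3:**
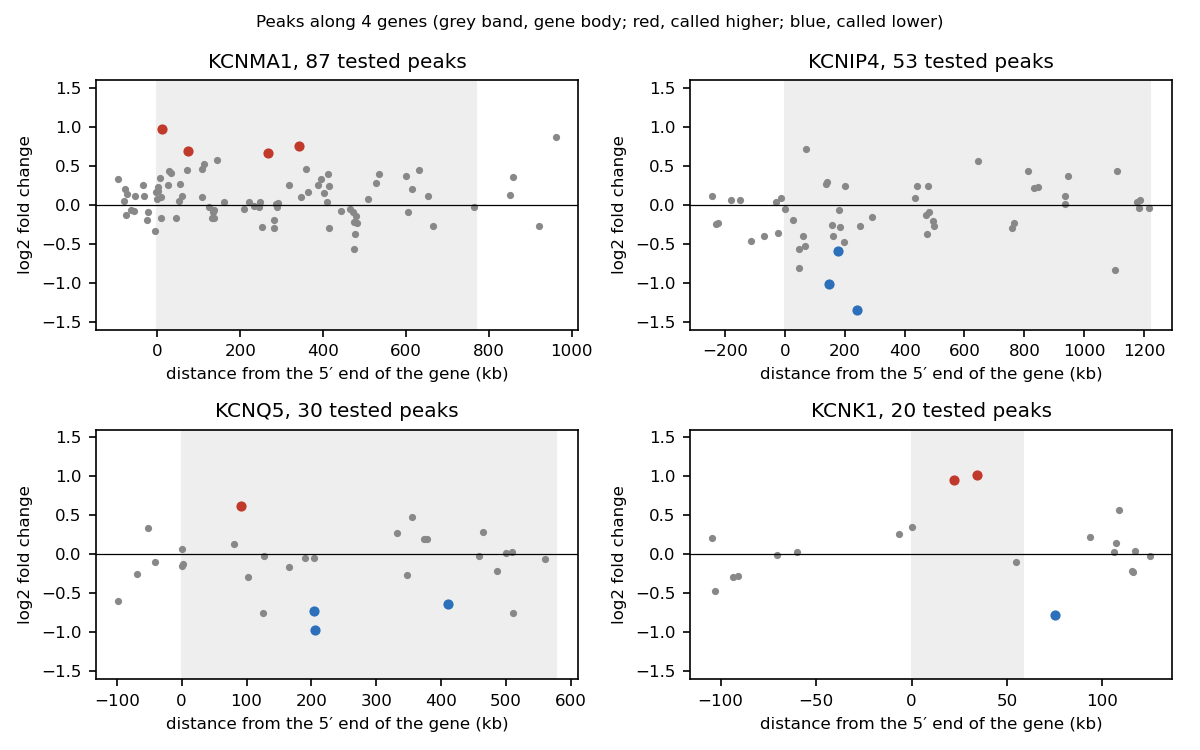
Log2 fold change of HMGB2OE over empty vector (vertical axis) against distance in kb from the 5′ end of the gene (horizontal axis) for every tested peak of KCNMA1, KCNIP4, KCNQ5 and KCNK1, with gene bodies as grey bands, peaks called higher in red and lower in blue. The called peaks of KCNMA1 and KCNIP4 lie inside the gene body among many grey peaks with smaller values, and the lower peak of KCNK1 lies past its end.

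Summed over all peaks of a gene, accessibility rose for 14 and fell for 3 of the 90 potassium channel genes with a tested sum, and for 9 and 7 when promoter peaks were left out of the sums. The sums weight strong peaks most and were called at an adjusted p under 0.05 with no fold limit, by edgeR's quasi-likelihood test adjusted over 18298 protein-coding genes, of which 5.74% were called higher and 3.37% lower. The median of the 90 was 0.065, beside -0.0026 over all genes, and 66 lay above 0. The genes that rose were KCNA2, KCNA5, KCND1, KCND3, KCNC1, KCNG4, KCNH2 and KCNH7 of the voltage-gated class, KCNK1 and KCNK5 of the tandem-pore class, and the auxiliary KCNMB2, KCNMB4, KCNAB1 and KCNIP1. KCNS3, KCNJ6 and KCNN4 fell. Of the 17 called sums 82.4% were higher, and 70.6% when libraries were scaled by size only.

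KCNA5 had the largest called rise of a sum, from 1549, 1689 and 1768 normalized counts in empty vector to 2255, 2110 and 2274 in HMGB2OE libraries (log2 fold change 0.40, SE 0.053, adjusted p = 0.000202). KCNA2 had 2992, 3271 and 3342 in empty vector and 4236, 3967 and 4315 in HMGB2OE libraries (log2 fold change 0.38, SE 0.047, adjusted p = 0.000155). In both genes all HMGB2OE sums were above all empty vector sums. KCNK5 had 1922, 1827 and 2053 in empty vector and 2463, 2354 and 2516 in HMGB2OE libraries (log2 fold change 0.34, SE 0.050, adjusted p = 0.000518), and KCNG4 and KCNMB2 had log2 fold changes of 0.29 (adjusted p = 0.00148) and 0.22 (adjusted p = 0.00644). KCNS3 fell, with 6983, 7089 and 6793 in empty vector and 6272, 6112 and 5642 in HMGB2OE libraries (log2 fold change -0.21, SE 0.042, adjusted p = 0.00514). These 6 sums, 5 higher and 1 lower, were called under every alternative run on sums.

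The other 11 were not. KCNN4, the intermediate-conductance calcium-activated channel, had a log2 fold change of -0.19 (SE 0.045, adjusted p = 0.0140), and of -0.17 without OE3, -0.16 without EV1 and -0.20 without EV2, where it lost its call (adjusted p up to 0.0663). KCNC1 had 0.23 (adjusted p = 0.0182) and was not called without OE2, OE3 or EV2, with values down to 0.18. KCNH2 had 0.26 (adjusted p = 0.0370) and was not called without OE1, OE3 or EV2, with values down to 0.18. KCNJ6 had -0.17 (adjusted p = 0.0373) and kept its call only without EV3 among the 6 libraries, and KCND1 had 0.35 (adjusted p = 0.0384) and lost it without each of the 6. KCND3, KCNK1, KCNH7, KCNAB1, KCNIP1 and KCNMB4 had log2 fold changes of 0.13 to 0.27 with adjusted p between 0.0254 and 0.0466, and each lost its call without EV1 and without OE1, and without up to 4 other libraries. The count of higher sums was 6 without OE1, without OE3 or without EV2, and 9 without EV1. The count of lower sums was 1 without OE3, EV1 or EV2.

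**Figure D4:**
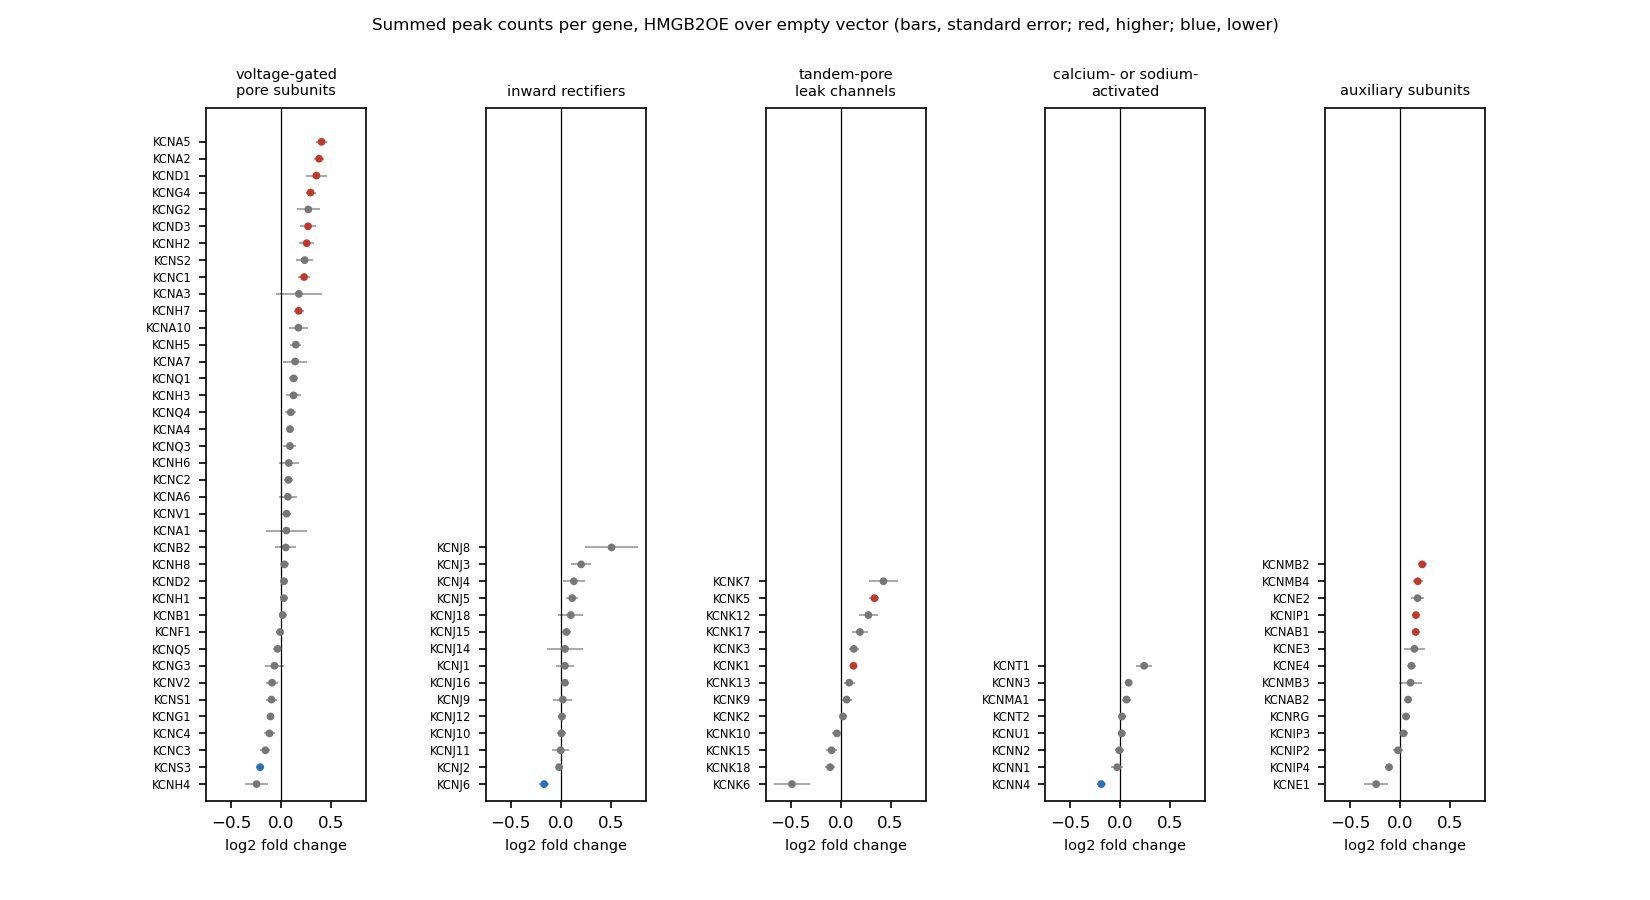
Log2 fold change of the summed peak counts (horizontal axis, HMGB2OE over empty vector) for the potassium channel genes with a tested sum, 1 gene not drawn, in 1 panel per class; points are genes and bars 1 standard error, with called genes in red (higher) and blue (lower). The red points are in the voltage-gated, tandem-pore and auxiliary panels, and KCNJ8 and KCNK6 show large values with wide bars that were not called.

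The few called promoter peaks assigned to channel genes were all higher, and only those at KCNQ1 and KCNK1 kept their calls without any library. Promoter peaks here are those centred within 3 kb of an annotated start site of transcription, coding or long non-coding. Of 231 potassium channel promoter peaks 5 were called higher and 0 lower under edgeR, where 0.977% and 0.788% of all promoter peaks were called. At that share 231 peaks are too few for a count of 0 lower to stand apart. The 5 were at KCNQ1, KCNK1, KCNK7, KCNC2 and KCNH3, of which those at KCNC2 and KCNH3 lie at the start of another transcript. At an unadjusted p under 0.05, 21 promoter peaks were lower, and DESeq2 called 0 lower. With no fold limit 13 promoter peaks were higher and 5 lower. Of 1043 distal peaks 35 were called higher and 20 lower, against 2.18% and 1.68% of all distal peaks.

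For 26 genes the promoter peak of highest count was read whether it changed or not, and 24 had one tested, all but KCNA1 and KCNJ13. The KCNQ1 peak described above was the only one called. That peak and those read for KCNMA1, KCND2, KCNIP1, KCNIP3 and KCNK2 lie at start sites inside the gene, not at its 5′ end. KCNJ6 had 528, 520 and 425 normalized counts in empty vector and 373, 355 and 303 in HMGB2OE libraries, with no overlap (log2 fold change -0.51, SE 0.11, adjusted p = 0.00446), a fall under the fold limit. KCNK1 had 332, 350 and 311 in empty vector and 391.9, 465 and 411 in HMGB2OE libraries, also without overlap (log2 fold change 0.35, SE 0.11, adjusted p = 0.0443), a rise under the fold limit. In the KCNJ6 gene the promoter, both called intronic peaks and the sum were all lower, but the sum contains those same peaks, so these are not separate results.

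Several of the most accessible channel promoters had close means in both conditions. KCNAB2 had a mean of 2221 in empty vector and 2207 in HMGB2OE libraries, KCNN3 of 1428 and 1427, KCNT2 of 1375 and 1431, and KCNJ2 of 1298 and 1282. KCNH1, the ether-a-go-go channel, had 1182 and 1216 in a peak centred in an unnamed gene that overlaps its start, which is therefore not among the 1274. In 8 of the 24 promoters the libraries did not overlap, and 12 of the 24 values lay above 0. Among all promoter peaks every HMGB2OE library lay higher in 8.75% and lower in 15.1%, and 41.2% of values lay above 0. KCNH1, KCNN3, KCNMA1, KCNJ2, KCNJ11, KCNK2, KCNAB2, KCNIP1 and KCNIP3 had promoter values so near 0 that their sign changed with the scaling or with a library left out, and no direction is given for them.

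Most channel peaks called higher, and all of those called lower, lay in introns or between genes. In introns 23 of 536 peaks were called higher and 11 lower, in coding exons 2 of 43 and 0, in untranslated exons 1 of 46 and 0, and between genes 14 of 649 and 9. Over all peaks, 1.72% of those in gene bodies were called higher and 1.25% lower, and 2.03% and 1.65% of intergenic peaks. The intergenic channel peaks, at 2.16% and 1.39%, were near the intergenic shares. The intronic ones were at 4.29% and 2.05%. The gene-body shares also cover exons and promoters, and shares over all intronic peaks were not computed. Of all distal peaks 2.18% were called higher and 1.68% lower. The exons hold too few peaks for counts of 0 to stand apart. In coding and untranslated exons 4 and 3 peaks were lower at an unadjusted p under 0.05, and DESeq2, like edgeR, called 0. Within 100 kb of a start site of the gene 31 of 766 were higher and 9 lower, and farther away 9 of 508 were higher and 11 lower. The nearer and the farther peaks were separated after their values were seen. Shares over all tested peaks at these distances were not computed, so the counts cannot be set beside a background. The nearer peaks also had a higher median GC content, 49.8% against 42.2%, and the part of distance was not tested. The median GC content was 51.3% for potassium channel peaks called higher and 37.6% for those called lower. It was 47.4% and 40.4% for all called peaks, and 46.2% for all tested peaks.

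When all tested peaks were divided into 3 equal parts by GC content, at 42.6% and 50.8%, the lowest part held 456 potassium channel peaks with 6 higher and 15 lower, the middle part 373 with 13 and 5, and the highest part 445 with 21 and 0. In that part DESeq2 also called 0 lower, and 30 peaks were lower at an unadjusted p under 0.05. The corresponding counts over all peaks were 622 and 1328, 1266 and 617, and 912 and 221, again with most lower calls in the lowest part. As shares, 1.25% and 2.67% of all peaks in the lowest part were called, 2.54% and 1.24% in the middle and 1.81% and 0.438% in the highest. For potassium channel peaks these shares were 1.32% and 3.29%, 3.49% and 1.34%, and 4.72% and 0. GC content moved with the direction of the calls, and its part in them was not tested beyond an added GC offset, under which 36 channel peaks were higher and 18 lower.

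**Figure D5:**
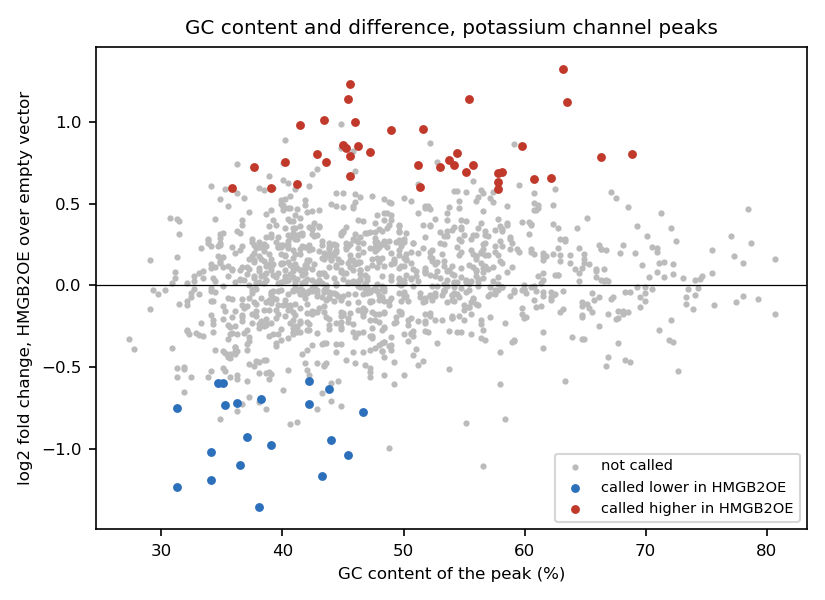
Log2 fold change of HMGB2OE over empty vector (vertical axis) against GC content in percent (horizontal axis) for the 1274 tested potassium channel peaks; points are peaks, red called higher, blue called lower and grey not called. Blue points lie at the low end of GC content and no called lower peak is in the highest of the 3 parts, from 50.8% up.

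Other ion transport genes were read in the same fits. The first list held partners of potassium channels and other potassium transport genes, among them HCN channels, the sodium-potassium pump and the cation-chloride cotransporters. It had 11 peaks called higher and 9 lower of 297 tested (3.70% and 3.03%), with a median log2 fold change of -0.017. The voltage-gated sodium channels had 2 higher and 2 lower of 97 (median 0.071), and the voltage-gated calcium channels 8 higher and 1 lower of 345 (median 0.060). By summed counts the 3 lists had 2 higher and 3 lower of 30 genes, 3 and 1 of 14, and 4 and 1 of 24. Over all protein-coding genes 5.74% of sums were called higher and 3.37% lower. Whether the potassium channel genes differed from them was not tested.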

How the data were processed

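ATAC-seq libraries of A375 cells, 3 empty vector and 3 HMGB2OE, were analysed by the condition given in their labels. The authors deposited raw counts per peak and library in 1 table. Per the labels and the study's methods, reads were demultiplexed with bcl2fastq 2.17, trimmed with Trim Galore 0.6.7 and cutadapt 4.0, checked with FastQC 0.12.1, aligned to hg38, deduplicated with Picard, and counted by featureCounts over MACS2 peaks merged into 1 atlas. How multiply aligned reads and transposase offsets were handled is not given in the sources used here. Of the 152800 peaks, all but 15 are 502 bases wide.

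Counts were tested with edgeR 4.0.16 in R 4.3.3: filterByExpr, TMM scaling, and a quasi-likelihood F test between the conditions without covariates, over 150117 peaks, with Benjamini-Hochberg adjustment. Gene sums add the counts of all peaks assigned to a gene and were tested the same way over all protein-coding genes. To normalize, each count was divided by its library's effective size (total times TMM factor) and brought back to the average size. The SE is the size of the log2 fold change over the square root of F. Annotation came from GENCODE release 44, on the files' build, hg38. Of the tested potassium channel peaks 26 lie in another protein-coding gene too. Sequences were read from hg38.

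Libraries of a condition differed by more than counting noise (chi-square per degree of freedom 2.50 to 4.66), so none was counted as a copy. Deviations from the condition means correlated at -0.089, 0.18 and 0.13 over tested peaks for libraries 1, 2 and 3. EV2 and EV3 correlated best with the library of their own number, and EV1 with OE3 (0.15). Deviations of 3 libraries from their own mean are not independent, so these values cannot decide whether the replicate numbers pair the libraries. Depth limits peaks of few counts most.

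The rule for named genes took every gene with a called peak or sum, the 5 largest rises and 5 largest falls with the most significant called peak of each class and direction, and 26 listed promoters. The genes and lists were chosen with earlier results of these data known. Alternatives were other scalings, DESeq2 1.42.0, count filters, GC offsets, the replicate block, other fold limits, assignment by nearest start, centring of 10 Mb windows, sums without promoter peaks and leaving out each library. The procedure was tested on simulated data, with changes larger than any called here. Their median fitted log2 size was 1.48 in peaks and 1.51 in sums, and simulated sums were called with the fold limit. The simulation therefore does not show how often changes of the size called here are found. The values of 1 gene are counted in the totals and not reported here.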

Additional observations from a re-analysis of the deposited data

How the results depend on the processing

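With main counts of 40 peaks higher and 20 lower, the counts were 72 and 48 with no fold limit and 6 and 7 at a fold limit of 2. DESeq2's test called 30 and 13. Leaving out each library gave 22 to 41 higher and 11 to 21 lower. Over all tested peaks it gave 1821 to 2978 higher and 1552 to 2237 lower, beside 2800 and 2166 with every library. The remaining peak alternatives called 36 to 44 higher and 15 to 22 lower. Limiting the peaks to those within 100 kb of a start site, an alternative chosen after seeing the data like that without KCNJ12 and KCNJ18, gave 31 and 9. Gene sums, 14 higher and 3 lower, gave 12 and 5 with library size only, 14 and 6 with DESeq2's test, 9 and 7 without promoter peaks, and 6 to 14 and 1 to 4 without single libraries. The replicate block gave 44 and 22 peaks and 18 and 4 sums, and with GC offsets 40 and 18 peaks. Whether the numbers pair the libraries was not settled, since EV1 correlated best with OE3 (0.15) but EV2 and EV3 with their own number.

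Without single libraries the HMGB2 coding-exon peaks had log2 fold changes of 0.96 to 1.27 and 1.46 to 2.08, and its promoter -0.085 to 0.071. Of promoters near 0, values of changed sign were, with library size only, 0.019 (KCNN3), 0.0021 (KCNMA1), 0.0014 (KCNJ2), 0.00083 (KCNJ11), 0.0100 (KCNAB2) and 0.011 (KCNIP1). With GC offsets they were 0.018 (KCNJ2), 0.021 (KCNJ11) and 0.024 (KCNAB2), and with GC offsets and the replicate block 0.020, 0.020 and 0.025. KCNN3 had 0.0022 with DESeq2's size factors, 0.0017 with its test and 0.00035 with the replicate block. Without single libraries the ranges were -0.0062 to 0.071 (KCNH1), -0.052 to 0.026 (KCNN3), -0.11 to 0.089 (KCNMA1), -0.068 to 0.0070 (KCNJ2), -0.12 to 0.059 (KCNJ11), -0.13 to 0.037 (KCNK2), -0.058 to 0.025 (KCNAB2), -0.048 to 0.037 (KCNIP1) and -0.0021 to 0.060 (KCNIP3). The cause of these changes was not tested.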
